A study of Mus musculus with 2 samples.

Results

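The actin and tropomyosin gene families build the thin filament of muscle and the actin cytoskeleton of every other cell. The 10 genes described here are the 6 actins Actc1, Acta1, Acta2, Actg2, Actb and Actg1 and the 4 tropomyosins Tpm1, Tpm2, Tpm3 and Tpm4. They were taken by gene symbol and make up 10 of the 55536 mouse genes measured. All 10 were found in every table.

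Hearts came from 2 adult male mice of strain B6CASTF1/J, the first-generation cross of C57BL/6J and CAST, at 8 to 10 months of age. The labels name no further allele or treatment, so the libraries form 1 group with no contrast. Total RNA (300 ng per library) was depleted of ribosomal RNA, given ERCC spike-ins and sequenced with a strand-keeping kit. The labels call the animals 2 and 4 (replicates 1 and 2 here) but give both the same donor entry. The libraries held 42.05 M and 39.98 M expected counts on mouse genes, expected counts being reads divided among genes by a statistical model, and their gene counts were not the same (chi-square of 15.4 per degree of freedom over 17075 genes), so they were not treated as 1 library deposited more than once. With 1 group there is no contrast to test, and values are given per library or as mean ± SD (n = 2), with no p-value.

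Actin monomers polymerise into filaments that myosin pulls on. Tropomyosin is a coiled coil that lies along the filament and, with troponin in striated muscle, controls when myosin can bind. Both families are known for tissue-specific forms: the actins through separate genes with near-identical proteins, the tropomyosins mostly through alternative exons of each gene. Adult mammalian heart muscle is known to use Actc1 and the striated form of Tpm1. In bulk tissue, fewer cells of a type and less RNA per cell cannot be told apart.

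Within the muscle group and within the cytoplasmic pair, the actin genes are told apart more by their codons than by their proteins. The first 60 coding bases of each gene's leading complete transcript follow, from GENCODE M21 on mm10, because the start of the protein is where muscle and cytoplasmic actins are known to differ most. All 6 genes lie on the minus strand. Capitals mark bases that differ from the Actc1 base they align with over the whole coding sequence. The protein has 377 residues in Actc1, Acta1 and Acta2, 376 in Actg2 and 375 in Actb and Actg1, and bases missing relative to Actc1 are not marked.
Actc1 (chr2:114051972-114052031): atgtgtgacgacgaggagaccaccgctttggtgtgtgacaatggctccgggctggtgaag
Acta1 (chr8:123893638-123893697): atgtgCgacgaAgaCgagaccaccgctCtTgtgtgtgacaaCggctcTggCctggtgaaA
Acta2 (chr19:34252494-34252553): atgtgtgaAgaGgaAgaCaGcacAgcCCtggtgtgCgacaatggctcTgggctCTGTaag
Actg2 (chr6:83527382-83527441): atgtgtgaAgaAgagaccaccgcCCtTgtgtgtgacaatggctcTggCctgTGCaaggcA
Actb (chr5:142905627-142905686): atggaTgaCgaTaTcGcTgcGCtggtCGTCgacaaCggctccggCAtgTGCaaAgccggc
Actg1 (chr11:120348032-120348091): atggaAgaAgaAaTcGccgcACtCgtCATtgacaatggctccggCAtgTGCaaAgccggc

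Acta1 departed from Actc1 at 9 of these bases, Acta2 at 14, Actg2 at 11, Actb at 19 and Actg1 at 17. Over the whole translated coding sequence, Actc1 and Acta1 differed at 4 of 377 residues, while 86.3% of their coding bases were identical. The smooth muscle pair Acta2 and Actg2 differed at 2 residues and the cytoplasmic pair Actb and Actg1 at 4 of 375. A muscle and a cytoplasmic actin differed at 21 to 24 residues. The tropomyosins were less alike, with 220 of 284 residues (77.5%) shared by the leading transcripts Tpm1-205 and Tpm2-203, which also carry different exons 6 and 9.

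These differences bear on how surely a read is placed. No 101-base stretch of any annotated Actc1, Acta1, Acta2, Actg2, Tpm1 or Tpm2 transcript occurred in another gene, and the deposited SD of the gene's count estimate was 0 for all 6. Of the 101-base stretches of Actb, 0.611% occurred elsewhere, against 7.32% for Tpm4, 15.6% for Tpm3 and 29.8% for Actg1. Actg1 shared most with the processed pseudogenes Gm12715, Gm8399 and Actg-ps1, and Tpm3 with the near-copy Tpm3-rs7. Levels of Actg1 and Tpm3 are therefore uncertain to the extent that these copies take or give reads. The deposited SD of the count estimate was 11.1 and 9.68 for Actg1, on 6824 and 5093 counts. For Tpm3 it was 15.7 and 12.9, on 807 and 710 counts. Gm8399 was at 8.89 and 7.36 TPM and Tpm3-rs7 at 3.87 and 2.26 TPM, where TPM is transcript abundance corrected for length and scaled to a fixed sum per library.

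Actc1, cardiac muscle actin, was the most abundant member (Ensembl ENSMUSG00000068614.7, mm10 chr2:114047282-114053548). It stood at 4742 TPM in replicate 1 and 5286 TPM in replicate 2, which is 5014 ± 385 TPM and rank 4 of 22015 nuclear protein-coding genes. A separate transcript quantification deposited by the authors, called the second quantification here, gave 4698 and 4943 TPM. Tpm1, alpha tropomyosin (ENSMUSG00000032366.15, chr9:67022590-67049406), was the only tropomyosin at a comparable level. Its values were 3268 and 3632 TPM, or 3450 ± 257 TPM, rank 7 of the same genes. Both genes were higher in replicate 2 in both quantifications.

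Acta1, skeletal muscle actin, which fetal and stressed heart is also known to use (ENSMUSG00000031972.5, chr8:123891769-123894751), stood at 182 and 206 TPM. The cytoplasmic actin Actb, a subunit of the cytoskeleton of most cells (ENSMUSG00000029580.14, chr5:142903115-142906754), stood higher, at 294 and 276 TPM. The other cytoplasmic actin, Actg1 (ENSMUSG00000062825.15, chr11:120345690-120348542), was at 111 and 87.1 TPM. The ranges of these 3 genes did not overlap with each other in either quantification, so their order Actb, Acta1, Actg1 was the same in every library.

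Acta2, the smooth muscle actin of vessel walls (ENSMUSG00000035783.9, chr19:34241090-34255590), was at 27.6 and 21.4 TPM. Actg2, the smooth muscle actin of gut and other hollow organs (ENSMUSG00000059430.14, chr6:83512905-83536265), was barely detected, with 20 and 8 counts, or 0.550 and 0.210 TPM. Exact 95% Poisson intervals for those counts are 12.2 to 30.9 and 3.45 to 15.8, and they cover counting error only. Actg2 was the only member below 1 TPM. The labelled tissue showed the markers of heart muscle at high levels, with the 6 cardiomyocyte markers (Myh6, Myl2, Tnnt2, Tnni3, Ryr2 and Pln) ranging from 358 TPM for Ryr2 to 8307 TPM for Myl2.

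Tpm4, a tropomyosin of nonmuscle cells (ENSMUSG00000031799.9, chr8:72134975-72153142), followed Tpm1 at 37.0 and 30.6 TPM. Tpm3, which serves both slow muscle fibres and the cytoskeleton (ENSMUSG00000027940.18, chr3:90072649-90100902), was at 12.4 and 10.9 TPM. Tpm2, beta tropomyosin of skeletal and smooth muscle (ENSMUSG00000028464.16, chr4:43514711-43523765), was at 9.48 and 10.7 TPM. In the main tables Tpm3 and Tpm2 did not differ beyond their spread, with a log2 ratio of 0.21 ± 0.26 from TPM. In the second quantification Tpm3 was higher in both libraries, at 12.9 and 13.2 TPM beside 9.77 and 10.6 TPM of Tpm2 (log2 0.40 and 0.32), and expected counts of the main tables gave a mean log2 ratio of 0.83. Acta2 and Tpm4 were separate in the main tables but overlapped in the second quantification, at 24.6 to 33.5 TPM and 27.0 to 34.5 TPM.

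**Figure D1:**
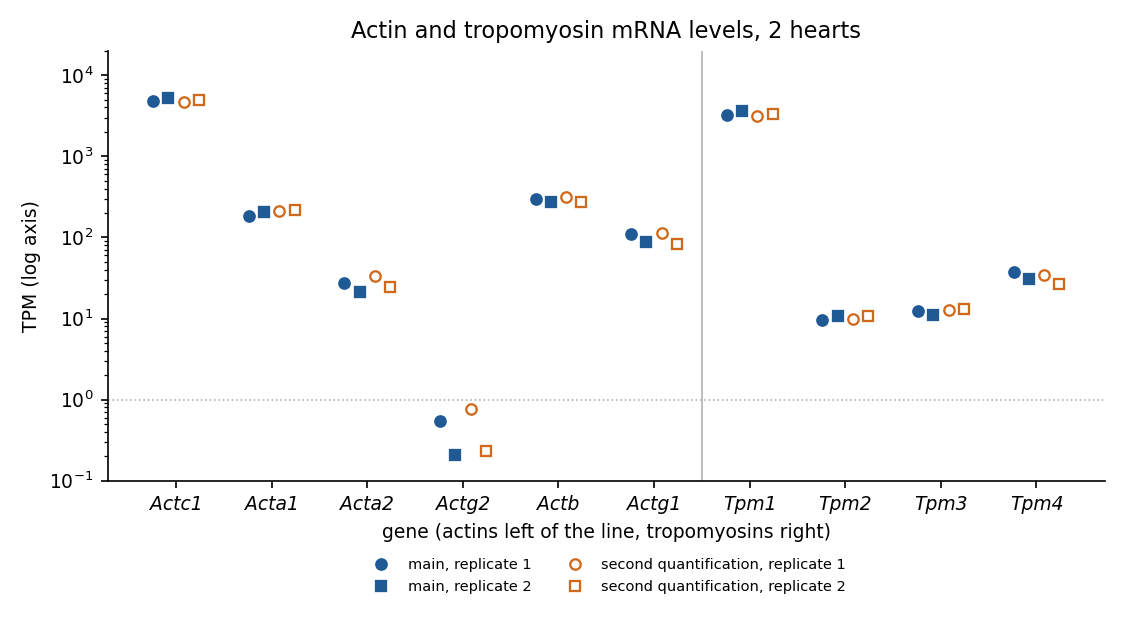
Level of each gene in TPM (vertical log axis) for the 6 actins and 4 tropomyosins; circles are replicate 1 and squares replicate 2, filled for the main tables and open for the second quantification. Actc1 and Tpm1 lie between 3169 and 5286 TPM, Actg2 lies below the dotted line at 1 TPM, and the others lie between.

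Actc1 supplied 88.5% of all actin TPM in replicate 1 and 89.9% in replicate 2 (89.2 ± 1.01%). Actb followed with 5.10 ± 0.564%, Acta1 with 3.45 ± 0.0861%, Actg1 with 1.78 ± 0.423%, Acta2 with 0.440 ± 0.107% and Actg2 with 0.00692 ± 0.00473%. The 4 muscle actins together held 93.1 ± 0.987% of actin TPM. Tpm1 dominated its family still more, at 98.2% and 98.6% of tropomyosin TPM. Tpm4 held 0.971 ± 0.200%, Tpm3 0.335 ± 0.0546% and Tpm2 0.288 ± 0.00426%. All 6 actins made up 0.536% and 0.588% of total TPM, and the 4 tropomyosins 0.333% and 0.368%. Total TPM also counts transcripts from outside the nuclear protein-coding genes. Of the TPM of nuclear protein-coding genes alone, the actins held 1.496% and 1.604% and the tropomyosins 0.929% and 1.006%.

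Actc1 exceeded Acta1 26.1-fold in replicate 1 and 25.6-fold in replicate 2 in the main tables, and 22.3-fold on average in the second quantification. Actc1 exceeded Acta2 172-fold and 247-fold, a log2 ratio of 7.69 ± 0.37. Actb exceeded Actg1 2.64-fold and 3.17-fold. Actb also exceeded Acta1, whose level was 0.617 and 0.747 of that of Actb. Ratios of Actc1 or Acta1 to Acta2 or Actb, and of Tpm1 to Tpm4, were each larger in replicate 2 than in replicate 1.

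Among tropomyosins, Tpm1 exceeded Tpm2 345-fold and 339-fold and Tpm4 88.3-fold and 119-fold. Tpm4 exceeded Tpm3 2.98-fold and 2.80-fold in the main tables and 2.34-fold on average in the second quantification. Between the families, Actc1 and Tpm1 stood in a steady ratio of 1.45-fold and 1.46-fold (log2 0.54 ± 0.00305). All actins over all tropomyosins gave 1.60-fold (log2 0.68 ± 0.01) and 1.66-fold in the second quantification.

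**Figure D2:**
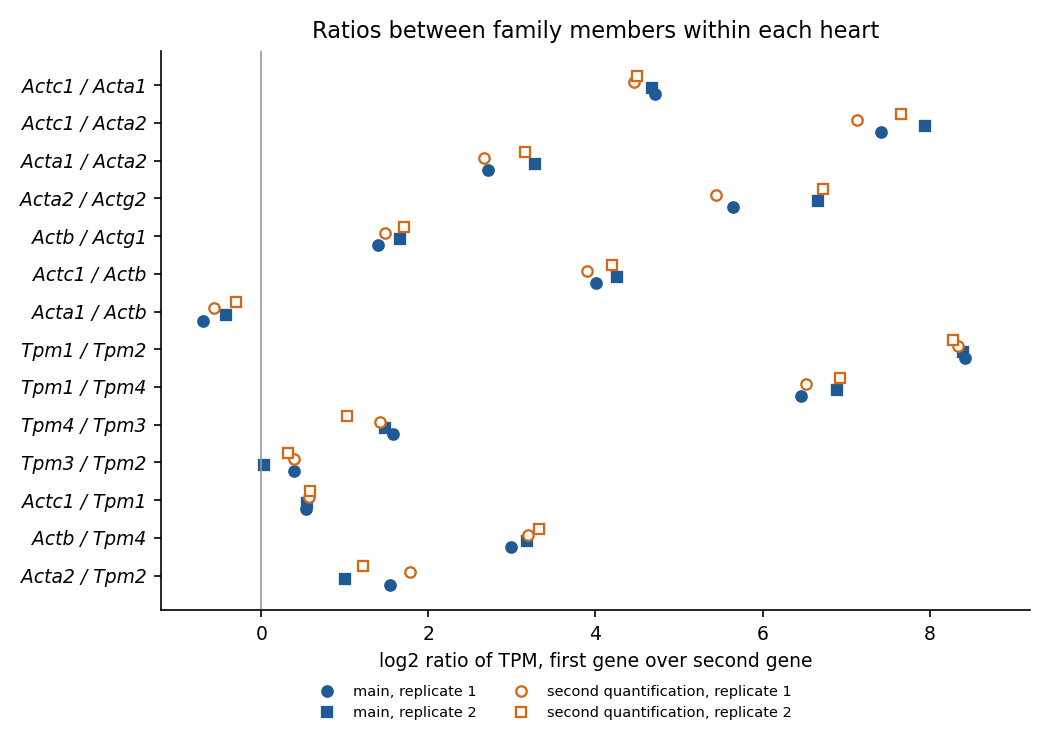
log2 ratio of TPM between pairs of genes within each library (horizontal axis), with circles for replicate 1, squares for replicate 2, filled for the main tables and open for the second quantification. In the main tables Actc1 over Tpm1 sits at 0.54 in both libraries, whereas Actc1 over Acta2 runs from 7.42 to 7.95.

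Among the other proteins of the cardiac thin filament, the troponin subunits Tnnt2 and Tnni3 were at levels near that of Tpm1, Tnnc1 was lower, and most partners were far lower. Of 17 thin filament partners, all reached 1 TPM in both libraries, beside 48.9% of all nuclear protein-coding genes. Their median was 145 ± 6.99 TPM, beside 1.01 ± 0.0424 TPM over all. That list also holds Myh6 and Mybpc3, which belong to the myosin filament, at 6638 ± 443 TPM and 652 ± 46.6 TPM. Actc1 stood at 0.750-fold and 0.761-fold the level of Myh6, and at 0.967-fold on average in the second quantification. The troponin subunits, which bind tropomyosin and sense calcium, were Tnnt2 at 3217 ± 167 TPM, Tnni3 at 3438 ± 210 TPM and Tnnc1 at 2152 ± 158 TPM. Tpm1 stood at 1.05-fold and 1.09-fold the level of Tnnt2 and at 0.994-fold and 1.01-fold that of Tnni3. In the second quantification those ratios were 0.735-fold and 0.822-fold on average, so the order of Tpm1 and troponin T was not the same in both. Actc1 exceeded Tnnc1 2.32-fold and 2.34-fold.

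Proteins that cap, measure or anchor the filament were lower. Actn2, the Z-disc crosslinker alpha-actinin, stood at 695 ± 35.4 TPM and Lmod2, a leiomodin that lengthens filaments at their pointed end, at 299 ± 27.2 TPM. Tmod1, which caps that end, stood at 88.1 ± 9.82 TPM, and the barbed-end capping subunit Capzb at 145 ± 6.99 TPM. Nebl, the cardiac nebulin relative, was at 107 ± 7.54 TPM, while Neb, the filament ruler of skeletal muscle, was at 2.60 ± 0.389 TPM.

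For the cytoskeletal side, 19 of 20 listed genes of actin turnover were matched (Actmap was not), and all 19 reached 1 TPM, with a median of 35.1 ± 1.87 TPM. The monomer-binding peptide Tmsb4x was at 203 ± 19.1 TPM and the filament-severing Gsn at 214 ± 15.4 TPM. Cfl2, the muscle cofilin, was at 144 ± 0.247 TPM and Cfl1, the nonmuscle cofilin, at 67.3 ± 3.69 TPM. Actb exceeded Cfl1 4.21-fold and 4.27-fold, and it exceeded the monomer-binding Pfn1 2.88-fold and 2.67-fold.

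Serum response factor, Srf, is known to bind the CArG box, a 10-base element, in promoters of actin genes. In RefSeq promoter windows (GRCm38.p6, 250 bases before to 50 after each start) 8 of the 10 genes were matched, with 9 windows. Actb and Actg2 are not among them. The box was found in 3 of the 9 windows, those of Actc1, Acta1 and Actg1, and in 1.63% of all 32851 windows (535). The scan took only exact matches to CC, a run of A or T, and GG, 10 bases in all. Boxes that depart from this pattern were not scanned, so a window without a match may still hold one. The pattern reads the same on both strands, so 1 scan covers both. The stretches with the box in capitals are shown on the minus strand, 35 bases before to 25 after it.
Actc1 (chr2:114052888-114052957): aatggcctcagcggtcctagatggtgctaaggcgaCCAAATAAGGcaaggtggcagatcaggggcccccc
Acta1 (chr8:123894814-123894883): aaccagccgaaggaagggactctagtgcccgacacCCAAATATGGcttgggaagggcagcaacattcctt
Actg1 (chr11:120348551-120348620): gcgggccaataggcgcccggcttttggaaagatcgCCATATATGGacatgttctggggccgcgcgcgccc

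The boxes begin at positions -47, -73 and -90 from the RefSeq start of Actc1, Acta1 and Actg1. A match is a description of the letters, and no binding was measured. The genes with the box ranged from 5014 TPM (Actc1) to 99.3 TPM (Actg1), and Tpm1, with no exact match in its window, stood at 3450 TPM. Srf itself was at 37.1 ± 0.424 TPM and its cardiac coactivator Myocd at 27.7 ± 3.56 TPM. The actin-sensing coactivators Mrtfa and Mrtfb were at 2.44 ± 0.219 and 8.53 ± 0.0141 TPM. All 12 listed genes of this axis and of muscle promoters reached 1 TPM, with a median of 33.5 ± 0.626 TPM. Abra, an activator of Srf signalling in striated muscle, was at 29.3 and 17.2 TPM and was the only 1 of the 12 past 1.5-fold between the animals, beside 3.71% of 10960 genes.

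The annotation gives 2 to 21 transcripts per gene, and the 2 quantifications divided them differently. Gene totals stayed close: 0 of the 9 members at 1 TPM or more differed by 1.5-fold or more the same way in both libraries, beside 5.51% of 11607 genes. The leading transcript was another one for 2 of 9 members, Acta2 and Actg1, beside 18.3% of 10131 genes. Shares are a transcript's percent of its gene's TPM, in replicate 1 and then replicate 2.

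Actc1-201, the full-length cardiac actin mRNA of 1473 nucleotides, held 99.96% and 99.97% of Actc1 (97.3% and 96.9% in the second quantification). For Acta1 the full-length Acta1-201 held 99.9% and 99.6%, against 76.4% and 80.6% in the second quantification. There the rest went to Acta1-202, a 616-nucleotide transcript with an incomplete coding sequence, of whose 586 31-base words 118 are absent from Acta1-201. The gap was already present in the counts, with 4.95 and 15.7 counts on Acta1-202 in the main tables and 769 and 657 in the second quantification.

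Acta2-201, the complete smooth muscle actin mRNA, held 62.3% and 69.4% of Acta2 in the main tables and 41.8% and 45.9% in the second quantification. The shorter Acta2-202, with an incomplete coding sequence, took all the rest, so the larger of the 2 changed with the quantification. Actb-201 led Actb in both, at 74.6% and 68.3% and at 60.3% and 56.6%. The next was the noncoding Actb-206 in the main tables (18.7% and 19.7%) and the incomplete Actb-208 in the second quantification (16.7% and 18.3%).

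For Actg1 the main tables gave Actg1-202 91.9% and 93.2% and listed Actg1-204 at 0. The second quantification gave Actg1-204 54.7% and 54.8% and Actg1-202 27.1% and 27.0%. Every 31-base word of Actg1-204 also occurs in Actg1-202, and both have a coding sequence of 1125 bases. The deposited SD of the count of Actg1-204 was 185 in replicate 1 and 105 in replicate 2, beside an estimate of 0. The gene total of Actg1 in the second quantification was 1.01-fold and 0.953-fold that of the main tables, so the division of reads differed within the gene and its level did so far less.

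**Figure D3:**
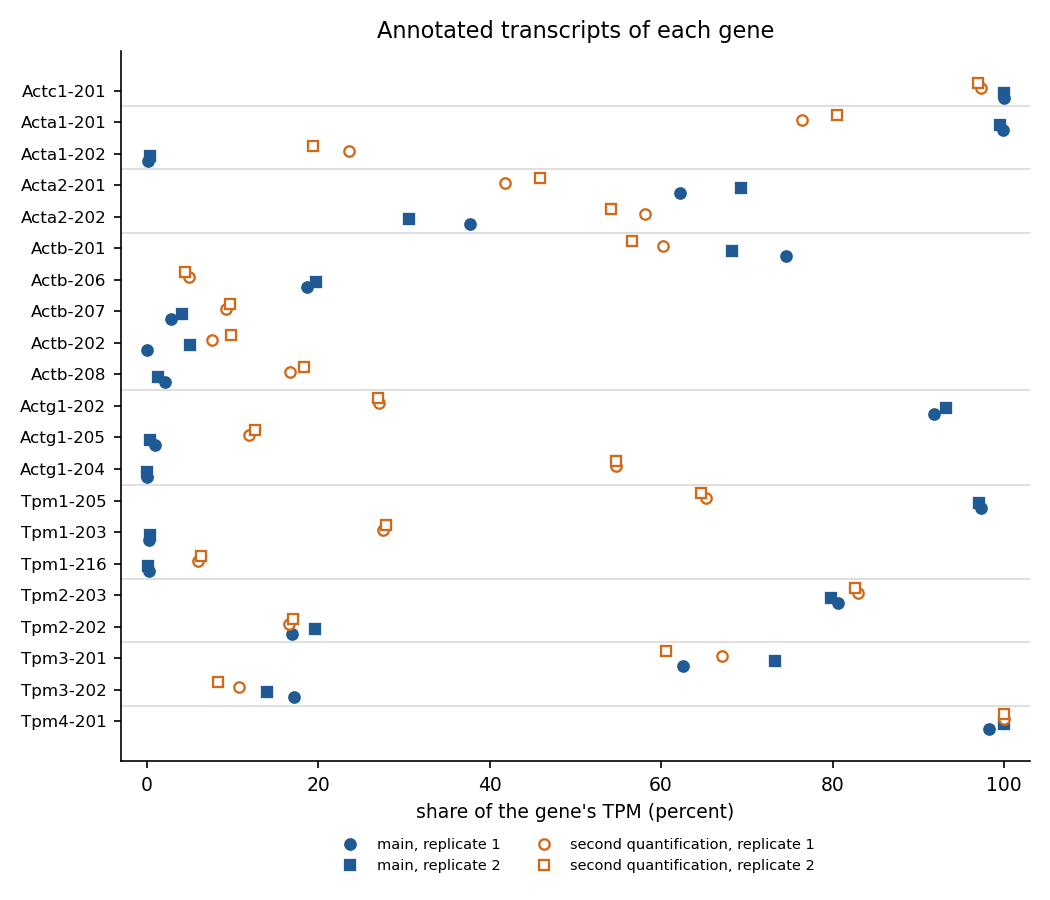
Share of each named transcript in its gene's TPM (horizontal axis, percent) for transcripts at 5% or more in both libraries of either quantification; circles are replicate 1, squares replicate 2, filled for the main tables and open for the second quantification. Actg1-202 and Tpm1-205 lie above 90% in the main tables and at 27.0% to 65.2% in the second quantification, while Tpm2-203 and Tpm4-201 lie close together in both.

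Tropomyosin forms are set by a choice of first exon, of exon 2, of exon 6 and of the last exon. Exons are named here by their usual numbers, in order of transcription. The set of exons 1a, 2b, 6b and 9a is the one known from striated muscle, and forms that start at exon 1b are the short ones of nonmuscle cells. The alternative exons on which the results turn follow, from GENCODE M21 transcripts on mm10, all on the minus strand. Each pair was aligned with gaps allowed, and capitals mark bases that differ from the other exon or have no partner in it.
Tpm1 exon 6a (chr9:67032466-67032541): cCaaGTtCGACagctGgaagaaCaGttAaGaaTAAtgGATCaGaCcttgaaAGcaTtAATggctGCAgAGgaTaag
Tpm1 exon 6b (chr9:67031951-67032026): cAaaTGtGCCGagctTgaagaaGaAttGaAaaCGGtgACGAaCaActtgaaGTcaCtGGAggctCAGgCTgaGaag
Tpm2 exon 6a (chr4:43519003-43519078): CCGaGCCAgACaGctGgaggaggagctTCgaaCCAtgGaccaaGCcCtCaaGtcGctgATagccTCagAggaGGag
Tpm2 exon 6b (chr4:43518644-43518719): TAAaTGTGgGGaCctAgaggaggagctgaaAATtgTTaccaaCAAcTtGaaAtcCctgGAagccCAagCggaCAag

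The exons of each pair are 76 bases long. The alignment left 33 bases in capitals in each Tpm1 exon and 30 in each Tpm2 exon. The Tpm2 alignment holds gaps and the Tpm1 alignment none, so the 2 counts are not like measures. Transcripts with exon 6b made up 98.5% and 98.1% of Tpm1, and those with exon 6a 0.317% and 0.394%. In the second quantification exon 6a reached 27.6% and 28.0% and exon 6b 72.2% and 71.8%. Exon 6b led in every library of both quantifications, but its share moved far more with the quantification than between the animals.

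The gap in exon 6a lay in 1 transcript. Tpm1-205, made of exons 1a, 2b, 6b, 9a and 9b, held 97.3% and 97.1% in the main tables and 65.2% and 64.6% in the second quantification. Tpm1-203, which holds exon 6a and a first exon longer by 51 bases, went from 0.280% and 0.360% to 27.6% and 28.0%. Its count was 370 and 500 in the main tables, with deposited SDs of 80.4 and 96.6, and 36892 and 38986 in the second quantification. Of the 1229 31-base words of Tpm1-203, 153 are absent from Tpm1-205: 51 begin in the first exon and 102 later, at exon 6a. Which of these stretches drew the reads was not tested, since the tables hold no read positions.

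The rest of Tpm1 varied less. Exon 1a was in transcripts with 99.8% and 99.8% of Tpm1, and exon 2b in 99.7% and 99.6%. Exon 2a, the smooth muscle alternative, was at 0.136 ± 0.0208%. Exon 9a was at 97.6 ± 0.0846%, against 92.7 ± 0.142% in the second quantification, and exon 9d, the last exon of smooth muscle and nonmuscle forms, at 0.403 ± 0.0528% against 6.26 ± 0.227%. Most of the exon 9d share in the second quantification was that of Tpm1-216. That transcript went from 0.25% and 0.21% to 5.98% and 6.31%. Its count was 516 and 454 in the main tables and 13065 and 14358 in the second quantification. Forms from exon 1b held 0.157 ± 0.0141% of Tpm1 in the main tables.

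Tpm2 showed the opposite exon choice and the same one in both quantifications. Exon 6a was in 83.0% and 80.3% of Tpm2, and exon 6b in 17.0% and 19.7%. The second quantification gave 83.3% and 83.0% for exon 6a. Tpm2-203, which joins exon 6a to exon 9d as in smooth muscle and nonmuscle cells, held 80.7% and 79.8%, and Tpm2-202, which joins exon 6b to exon 9a as in striated muscle, 16.9% and 19.7%. The counts behind these shares are few, 410 and 440 for the whole gene.

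Tpm3 was mostly of the short nonmuscle form. Exon 1b was in transcripts with 83.3% and 91.4% of its TPM and exon 1a in 5.23% and 3.85%. Exon 6a was at 72.9 ± 3.90% and exon 9d at 83.5 ± 5.38%. Tpm3-201 led with 62.6% and 73.3%. In the second quantification exon 1b was lower in replicate 2, at 81.2% and 71.7%, beside a share of 2.07% and 21.1% for Tpm3-208, a retained-intron transcript. That transcript is 427 nucleotides long, and its share rests on 2.08 and 21.1 estimated counts, of 912 and 830 for Tpm3. Tpm4 had essentially 1 form, Tpm4-201 with exons 1b, 6b and 9d, at 98.2% and 100% in the main tables and 100% in both libraries of the second quantification.

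By protein length, the long tropomyosins (800 coding bases or more) were 97.2 ± 0.0343% of tropomyosin TPM and the short ones 1.39 ± 0.196%. Nearly all the long form was Tpm1, at 3397 ± 244 TPM, followed by Tpm2 at 10.1 ± 0.870 TPM. The short forms came from Tpm4 (33.5 ± 4.11 TPM), Tpm3 (9.81 ± 0.156 TPM) and Tpm1 (5.11 ± 0.898 TPM). Tpm1 thus contributed less to the short class than Tpm3 or Tpm4 did, although its total was 102-fold that of Tpm4.

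**Figure D4:**
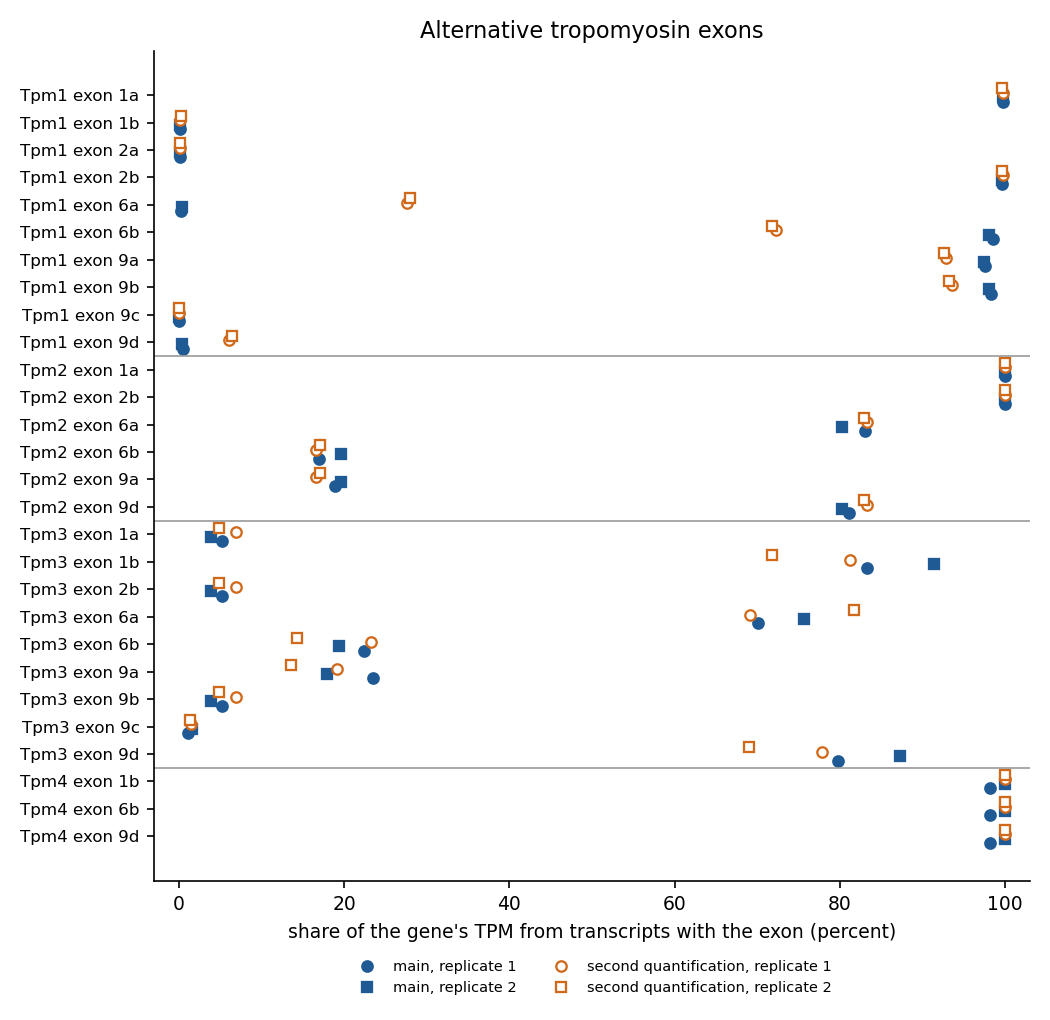
Share of each tropomyosin gene's TPM that comes from transcripts with a given alternative exon (horizontal axis, percent); circles are replicate 1, squares replicate 2, filled for the main tables and open for the second quantification. Tpm1 exon 6a lies at 0.317% and 0.394% in the main tables and near 28.0% in the second quantification, and Tpm2 exon 6a lies above 80.0% in both.

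Genes known to regulate splicing of muscle exons were present. Of 12 listed, 11 reached 1 TPM in each library, the median of the 12 being 32.5 ± 3.25 TPM, and Esrp1, an epithelial factor, was listed at 0. Rbm20, which controls splicing of titin in heart, was at 85.9 ± 6.88 TPM, Mbnl1 at 88.7 ± 3.05 TPM and Qk at 184 ± 11.3 TPM. Ptbp1, a repressor of many muscle exons, was at 18.8 ± 1.51 TPM and its relative Ptbp2 at 6.26 ± 2.53 TPM.

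Between the 2 animals, 0 of the 9 members with 200 or more summed counts differed 1.5-fold or more, beside 3.71% of 10960 genes. Ratios here are of replicate 2 over replicate 1 after TMM scaling, a size correction that assumes most genes do not differ, with 95% Clopper-Pearson intervals for counting error only. The median absolute log2 ratio was 0.16 over the 9 members and 0.11 over all 10960 genes. Higher in replicate 2 were 4 members and lower 5.

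Actc1, Acta1 and Tpm1 were higher in replicate 2. Actc1 had a log2 ratio of 0.13 (0.12 to 0.13), Acta1 of 0.15 (0.11 to 0.19) and Tpm1 of 0.12 (0.11 to 0.13). All 6 cardiomyocyte markers lay the same way, from 0.07 (Myl2 and Ryr2) to 0.12 (Myh6), with their summed level at 23532 and 25580 TPM. Of the 17 thin filament partners, a list that shares Myh6, Tnnt2 and Tnni3 with those markers, 13 were higher in replicate 2. The median log2 ratio of the 17 was 0.08, beside 0.01 over all 10960 genes. Tpm2 was at 0.16, with an interval of -0.04 to 0.35 that includes 0.

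Actg1, Acta2, Tpm4 and Actb were lower in replicate 2. Actg1 had a log2 ratio of -0.37 (-0.42 to -0.32), Acta2 of -0.32 (-0.43 to -0.20), Tpm4 of -0.29 (-0.37 to -0.20) and Actb of -0.20 (-0.23 to -0.16). Tpm3 was at -0.13, with an interval of -0.28 to 0.02. Actg2, with 28 counts in all, was not counted among the 9. Each of these signs was the same under DESeq2 size factors, total counts, ERCC spike-in counts and the second quantification, with Actg1 between -0.42 and -0.35 and Actc1 between 0.08 and 0.15.

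Marker lists moved unevenly beside them. Of the 7 smooth muscle and pericyte markers with 200 or more summed counts, 2 were higher and 5 lower in replicate 2, and the list of 8 summed to 209 and 205 TPM. The higher ones were Pdgfrb, a growth factor receptor of pericytes, at 7.73 and 10.7 TPM, and Smtn, smoothelin, at 50.8 and 56.7 TPM. Of the 5 lower ones, Tagln, an actin-binding protein of smooth muscle, was at 20.5 and 12.8 TPM. Myh11, smooth muscle myosin, was at 8.39 and 7.88 TPM, Mylk at 11.5 and 9.40 TPM and Lmod1 at 1.04 and 0.770 TPM. The last of the 5, Rgs5, was at 107 and 105 TPM and made up the largest part of the sum. Cnn1, with fewer than 200 summed counts, was at 1.63 and 1.27 TPM. Of the 4 endothelial markers 2 were higher and 2 lower, with a sum of 129.5 and 128.8 TPM. Of the 5 fibroblast markers 2 were higher and 3 lower, with a sum of 151 and 169 TPM. Of the 3 macrophage markers 1 was higher and 2 lower, with a sum of 24.1 and 23.2 TPM, and Adgre1 was at 5.73 and 3.45 TPM, past 1.5-fold. Erythroid and platelet markers, all 4 lower in replicate 2, summed to 4296 and 2311 TPM, of which Hbb-bs held 4229 and 2272 TPM. Skeletal muscle markers were low and none was at 0. The 7 fast fibre genes summed to 21.9 and 22.2 TPM, with Myl1 at 14.5 and 14.4 TPM and Myh4 at 1.94 and 1.98 TPM. The 2 slow ones summed to 4.54 and 5.53 TPM. The part of these other cells in the levels of Acta1, Acta2, Actb, Actg1 and Tpm4 was not tested.

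**Figure D5:**
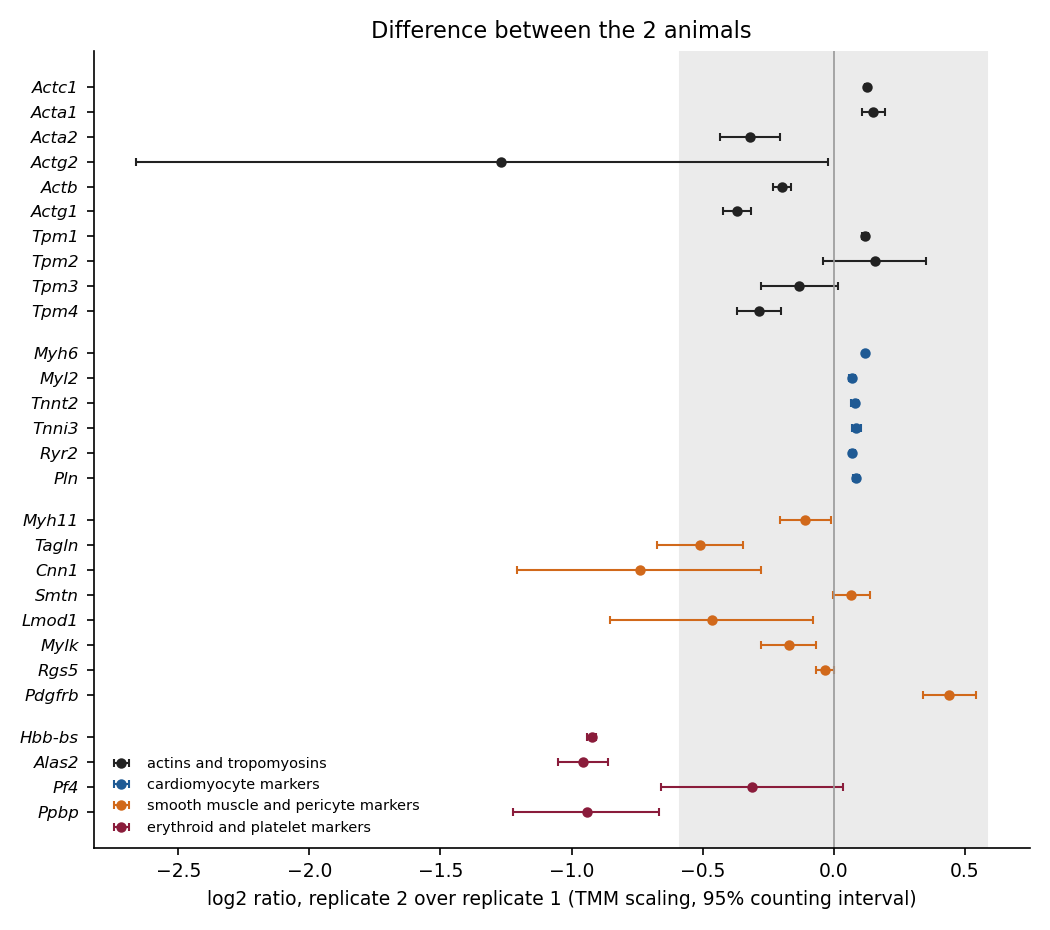
log2 ratio of replicate 2 over replicate 1 after TMM scaling (horizontal axis) for the 10 genes and 3 marker lists; points are ratios, bars 95% counting intervals, and the grey band spans 1.5-fold either way. Actc1, Acta1 and Tpm1 lie right of 0 with the cardiomyocyte markers, while Acta2, Actb, Actg1 and Tpm4 lie left of 0 and inside the band.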

How the data were processed

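The main tables, deposited by the authors in the column layout of RSEM per the file headers, hold expected counts, TPM and FPKM per gene and, per transcript, also its percent of the gene's TPM. A second transcript table per library, deposited by the authors in the layout of kallisto, gives estimated counts and TPM, summed here per gene. All use mm10 and GENCODE M21, per the file listings. The quantification software is not given in the sources used here. To correct for length, the main tables take 100 nucleotides off each transcript, and the second tables a median of 249.1 in replicate 1 and 248.1 in replicate 2.

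Expected counts were rounded and scaled with edgeR 4.0.16 (TMM) or DESeq2 1.42.0 in R 4.3.3. Other steps used Python 3.11.15, pandas 2.3.3, numpy 2.4.6, scipy 1.17.1 and Biopython 1.88, and the ratio step was tested on simulated data. Proteins were translated from GENCODE transcripts. Named were all 10 members, genes of fixed lists, and transcripts at 5% or more in both libraries of either quantification. Alternatives were the second quantification, FPKM, counts, other scalings, a pseudocount of 1 TPM, filters on low values and on noncoding transcripts, and leaving out either library. Members and lists were chosen with earlier results of these data known. Intervals cover counting error only, since amplified copies of a molecule cannot be recognised in these tables.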

Additional observations from a re-analysis of the deposited data

How the results depend on the processing

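Leaving out 1 of 2 libraries returns the other's value, and FPKM or another TPM base changes the unit, so neither is counted here. Of 246 other values recomputed for 95 results, 143 stayed within 1 SD over the 2 libraries (for ratios between animals, within their counting interval, and for counts within 1.5-fold), 103 moved further and 0 reversed. An SD from 2 libraries is itself imprecise. Levels, shares, medians and counts have no sign, so only log2 ratios could reverse. The loss of the lead by Acta2-201 and Actg1-202 in the second quantification was counted as a move. The ratio of Tpm1 to Tnnt2, whose order changed, was not among the 95 results. Some of the 246 could not move. Filters on low values took nothing from the tropomyosins or from lists with every gene at 1 TPM or more. The second quantification moved 52 results further and left 43 within these limits, and expected counts moved 26 and left 20. With the second quantification, the log2 ratio of actins over tropomyosins went from 0.68 to 0.73, that of Actc1 over Acta1 from 4.69 to 4.48, Tpm1 exon 6b from 98.3% to 72.0% and Tpm1 exon 9a from 97.6% to 92.7%. With expected counts, where long transcripts weigh more, Tpm1 held 97.4% of its family in place of 98.4%, and the log2 ratios of actins over tropomyosins, Actc1 over Acta1 and Actb over Actg1 became 0.996, 4.72 and 1.32. Counts also moved the share of Tpm4 from 0.971% to 1.75%, that of Tpm3 from 0.335% to 0.576%, and the log2 ratio of Tpm1 over Tpm4 from 6.68 to 5.81 and of Tpm3 over Tpm2 from 0.21 to 0.83. With protein-coding transcripts alone, Tpm1 exon 6b stood at 99.7% and exon 9a at 98.9%. Without either library, the Actc1 share ran from 88.5% to 89.9%. The count of members past 1.5-fold between the animals was 0 under every scaling. Counts of 20 and 8 limit Actg2, whose share and ratios carry little precision. No paired analysis was possible because the series holds 1 group.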

Other observations

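Of 20 genes of the wider actin superfamily (symbols starting with Actl, Actr, Actbl or Actrt), 10 reached 1 TPM in both libraries and 9 were listed at 0 in both, beside 48.9% at 1 TPM and 5556 at 0 of all 22015 nuclear protein-coding genes. Those present encode actin-related proteins of large complexes. Actr2 (28.0 ± 0.113 TPM) and Actr3 (39.2 ± 3.74 TPM) belong to the Arp2/3 complex, which nucleates branched filaments. Actr1a (32.2 ± 1.04 TPM), Actr1b (35.8 ± 2.35 TPM) and Actr10 (47.5 ± 2.14 TPM) belong to dynactin, the partner of the motor dynein. Actl6a, a subunit of chromatin remodellers, was at 6.56 ± 0.771 TPM, while its neuronal relative Actl6b was listed at 0. Actbl2, Actl11, Actl7a, Actl7b, Actl9, Actrt1, Actrt2 and Actrt3 were also listed at 0.

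Some annotated genes overlap members on the other strand. A530058N18Rik, a noncoding gene antisense to Actc1, was at 2.07 and 1.77 TPM. Gm20388, a long gene model antisense to Acta1, was at 2.33 and 0.330 TPM in the main tables and 7.12 and 6.75 TPM in the second quantification. The kit keeps strand, and neither the labels nor the file headers say whether the counting used it.

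Lrrc58, a gene on another locus with an annotated transcript that shares 429 of the 2821 31-base words of Actb, stood at 23.5 and 19.6 TPM. Gm15725, a transcribed pseudogene of Actb, was at 7.74 and 8.08 TPM in the main tables and 12.5 and 11.1 TPM in the second quantification.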
